A study of Homo sapiens with 6 samples.

Results

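The transcriptome of T24 bladder carcinoma cells that received a non-targeting siRNA was described from the 3 control libraries of the series, replicates 1, 3 and 5, taken alone. The members were the protein-coding genes with a mean of at least 1 CPM (counts scaled to a fixed total per library, with the library total as the divisor) over these 3 libraries. There were 11406 such genes among 19488 protein-coding genes matched in the count table, which lists 63677 gene identifiers in all. The other 3 of the 6 libraries, from cells in which the RNA-binding protein RBM3 was silenced, entered no value here.

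T24 is an established human cell line from an invasive, grade 3 transitional cell carcinoma of the bladder, and it is widely known as a line that carries a mutated HRAS oncogene. The control cells were transfected with the non-targeting siRNA at 25 nM by lipofection in medium without serum for 4.5 h, were returned to full growth medium and were harvested the next day. Every library of the series shares the transfection and the serum-free step, so the levels below are those of transfected cells and not of undisturbed cultures. Polyadenylated RNA was made into stranded libraries and sequenced as single-end reads of 75 bp. The samples were prepared in triplicate, but the sources do not say of these libraries that they came from separate cultures. The study describes its cell experiments in general as independent repeats. The spread between the libraries may still be technical.

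The layers of the urothelium, which lines the bladder, include a basal one with stem-like cells and keratins such as KRT5 and KRT14. They also include a luminal one, whose cells carry KRT20 and the uroplakins that seal the surface against urine. Urothelial carcinomas are often ordered along this basal to luminal axis, and lines from invasive tumours can also carry genes of mesenchymal cells, which make matrix and move singly. A bulk library counts RNA molecules over all cells together, and a small set of genes for translation, energy metabolism and the cytoskeleton usually takes a large share of the reads.

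The 3 libraries held 27452442, 26462306 and 26394578 counts. Protein-coding genes took 97.5 to 97.8% of the counts, long non-coding RNAs 0.880 to 0.916%, and the 13 protein-coding genes of the mitochondrial genome 1.32 to 2.29%. Between 14863 and 14941 protein-coding genes had at least 1 count in a library. A count of 3 corresponded to 0.109 to 0.114 CPM, so lower levels were not resolved at this depth. Intervals were not drawn from these counts, because reads without molecular identifiers are not independent molecules.

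The levels spanned more than 4 powers of 10. The median expressed gene lay at 36.0 CPM, with quartiles of 13.8 and 81.1 CPM, and 90% of the genes lay under 168.5 CPM. Of the 11406 genes, 2258 (19.8%) lay between 1 and 10 CPM and together took 1.04% of the counts of expressed genes. The 6953 genes between 10 and 100 CPM (61.0%) took 29.9%, the 2110 genes between 100 and 1000 CPM (18.5%) took 51.0%, and the 85 genes at 1000 CPM or more (0.745%) took 18.1%. The 875 highest genes held 50% of the counts. The 10 highest genes held 6.38 to 6.43% of the protein-coding counts in a library, the 100 highest 19.0 to 19.9% (19.5% ± 0.431, SD, n = 3) and the 1000 highest 52.1 to 53.1%.

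At the lower edge, 11171 genes reached 1 CPM in each of the 3 libraries and 235 were below it in at least 1 of them. The genes just above the limit were PTN (1.00 CPM), CYP2D7 (1.00 CPM) and LRRC7 (1.01 CPM), and those just below were SPNS3 (0.997 CPM), FHIT (0.997 CPM) and NPW (0.997 CPM). Their SDs of 0.122 to 0.544 CPM were far larger than their distance from the limit. Below it lay 8082 protein-coding genes, of which 3504 had no count in any control library.

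**Figure D1:**
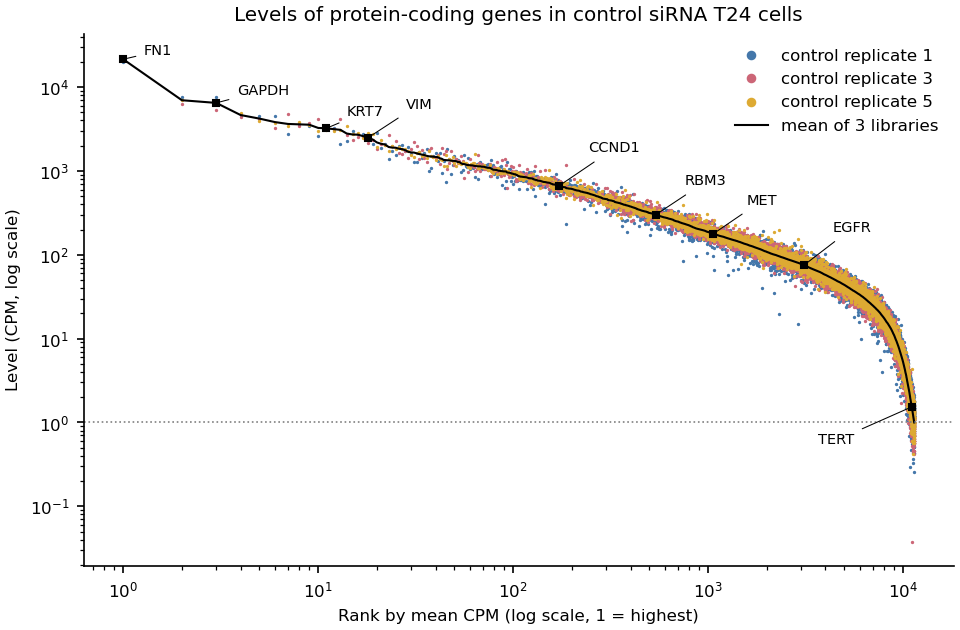
Level of each of the 11406 expressed protein-coding genes (CPM, log scale) against its rank by mean CPM (log scale). Coloured points are the 3 control libraries, the black line is their mean, black squares mark named genes and the dotted line marks 1 CPM. FN1 at 21471 CPM stood 3 times above ACTB, the next gene, and CCND1, RBM3 and MET held ranks 172, 540 and 1064.

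FN1, which encodes fibronectin, a glycoprotein of the extracellular matrix that binds integrins, was the highest gene by CPM. It lies on the minus strand of chromosome 2 (GRCh37, chr2:216225163-216300796). Its level was 20052, 22265 and 22096 CPM in replicates 1, 3 and 5, a mean of 21471 CPM ± 1232 (SD, n = 3). Replicate 1 was the lowest library by a factor of 1.11. Replicates 3 and 5 were nearly equal.

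The other genes among the 10 highest by CPM were ACTB and ACTG1, the cytoplasmic actins, GAPDH and PKM, enzymes of glycolysis, the actin cross-linker FLNA, the membrane protein APLP2, the elongation factor EEF1A1, and MT-ND4 and MT-CO1, subunits of respiratory complexes I and IV. ACTB had 7610, 6331 and 6968 CPM in replicates 1, 3 and 5, and GAPDH had 7571, 5357 and 6501 CPM, so that both were highest in replicate 1 and lowest in replicate 3. ACTG1 (4640 CPM), FLNA (4207 CPM), APLP2 (3591 CPM) and EEF1A1 (3558 CPM) had coefficients of variation (CV, the SD as a percentage of the mean) of 4.44 to 7.33%. MT-ND4 (3633 CPM) and MT-CO1 (3257 CPM) varied more, with CVs of 27.3% and 25.5%.

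Long transcripts collect more fragments per molecule, so levels are compared between genes below per length, as TPM (a transcript-level analogue of CPM: counts divided by the length of all annotated exons, scaled to the same sum over protein-coding genes in each library). By TPM the first gene was TMSB10, a small protein that binds actin monomers, at 19294 TPM ± 1844. GAPDH followed at 11448 TPM ± 2188, MT-ND4 at 11113 TPM ± 2893 and S100A6, a small calcium-binding protein, at 10314 TPM ± 1246. The means of these last 3 differed by less than their SDs, so their order was not resolved. Of the 10 highest genes by TPM, 6 are encoded by the mitochondrial genome. FN1 held rank 14 at 5266 TPM ± 186. The use of all annotated exons as the length understates the TPM of genes whose long exons are seldom used.

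The promoters of a few genes at different levels are shown so that the start sites behind these levels can be compared. Each line gives the 120 bases before the transcription start on the strand of the gene (RefSeq, GRCh38.p14), with matches to the searched motifs in capitals. The motifs were the TATA box (TATAAA), the CCAAT box (CCAAT), the GC box (GGGCGG) and an ETS site (CCGGAAG), and, added after the levels of the gene lists were known, an interferon-stimulated response element, ISRE, written GAAA, any 2 bases, GAAA, an E2F site, written TTT, any base, GCGC, the cell cycle homology region, CHR (TTTGAA), and an NF-κB site, written GGG, any 2 bases, TTTCC, each on both strands. CCND1 and ACTB were not analysed here.
FN1 (chr2:215436069-215436188, minus strand): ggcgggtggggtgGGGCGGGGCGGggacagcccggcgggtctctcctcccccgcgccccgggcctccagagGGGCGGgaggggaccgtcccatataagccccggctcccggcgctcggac
GAPDH (chr12:6535144-6535263, plus strand): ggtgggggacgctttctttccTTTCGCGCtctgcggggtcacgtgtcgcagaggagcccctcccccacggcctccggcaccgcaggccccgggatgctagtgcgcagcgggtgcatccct
MET (chr7:116672076-116672195, plus strand): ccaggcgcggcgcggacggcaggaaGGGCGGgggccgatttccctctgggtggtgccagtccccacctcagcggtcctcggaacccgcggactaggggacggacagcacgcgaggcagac
RBM3 (chrX:48574364-48574483, plus strand): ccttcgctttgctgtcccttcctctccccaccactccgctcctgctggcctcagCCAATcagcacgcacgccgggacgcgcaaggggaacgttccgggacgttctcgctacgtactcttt

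Matches of these letters are descriptions and not evidence of binding. The FN1 stretch held 3 GC boxes, starting 107, 102 and 49 bases before the start, of which the first 2 overlap by 1 base. The MET stretch held a GC box at 95 bases, the RBM3 stretch a CCAAT box at 66 bases and the GAPDH stretch an E2F match at 99 bases. The 4 stretches were rich in G and C, with shares of 80.8% in FN1, 70.8% in GAPDH, 73.3% in MET and 63.3% in RBM3.

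Across windows of 300 bases (250 before the start and 50 after it), which matched 9303 of the 11406 expressed genes, the share of promoters with each motif is given by level. A TATA box was in 15.9% of the 5751 windows of genes under 1 CPM, in 7.09% between 1 and 10 CPM, in 4.39% between 10 and 100 CPM, in 6.35% between 100 and 1000 CPM, and in 18.03% (11 of 61) at 1000 CPM or more. The share was thus lowest for the middle of the range and higher at both ends. These matches lie anywhere in the window on either strand. On the strand of the gene and 45 to 15 bases before the start, the shares were 6.75, 2.27, 1.06, 2.55 and 13.1% (8 of 61). Over all windows that share was 3.59%. The median GC content of the windows was 57.3% under 1 CPM, then 64.0, 65.3, 67.0 and 66.7%. Its part in the motif shares was not tested. The GC box had a larger share in each successive class, from 40.6% under 1 CPM through 64.4%, 72.1% and 75.9% to 83.6% (51 of 61). The ETS site was most frequent between 10 and 100 CPM, at 22.5%, against 5.63% under 1 CPM and 11.5% (7 of 61) at 1000 CPM or more. The CCAAT box was in 35.0 to 41.0% of the windows of every class. Over all 15054 protein-coding windows the shares were 9.39% for the TATA box, 59.7% for the GC box, 14.5% for the ETS site and 36.6% for the CCAAT box.

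CCND1, the D-type cyclin that drives the G1 to S transition with CDK4 and CDK6, lies at chr11:69455924-69469242 (GRCh37, plus strand). Its level was 677, 576 and 740 CPM in replicates 1, 3 and 5 (664 CPM ± 82.9), which placed it at rank 172 by CPM and 231 by TPM. MET, the receptor of hepatocyte growth factor, lies at chr7:116312250-116438431 (plus strand). Its level was 203, 169 and 162 CPM (178 CPM ± 21.97), at rank 1064 by CPM and 1773 by TPM. The range of both genes between libraries stayed under 1.5-fold. RBM3, the target of the siRNA in the other cells of the study, lies at chrX:48432837-48439550 (plus strand) and had 238, 363 and 302 CPM (301 CPM ± 62.6), within the highest 6.59% of expressed genes by TPM. Replicate 1 was the lowest library for RBM3 and replicate 3 the highest. CIRBP, the other cold-inducible RNA-binding protein of this family, had 110, 104 and 121 CPM.

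Markers of the basal and luminal urothelial layers and of mesenchymal cells were found. The defining keratins of these layers and the listed uroplakins other than UPK2 were under 1 CPM. Of 18 luminal markers 10 were expressed. Such counts of expressed members, here and below, are to be read beside the 11406 of 19488 protein-coding genes that were expressed. The simple-epithelial keratins were high per length: KRT7 had 3424, 3123 and 3118 CPM (3408 TPM), KRT18 1097 TPM, KRT8 723 TPM and KRT19 507 TPM. KRT7 was nearly even across the libraries, and KRT8, KRT18 and KRT19 were highest in replicate 1. The luminal transcription factors lay lower, with PPARG at 51.4 TPM, FOXA1 at 42.4 TPM, GATA3 at 13.6 TPM and ELF3 at 8.22 TPM. Markers of the finished umbrella cell were at or near 0: KRT20, UPK1A, UPK1B, UPK3A and UPK3B had means under 1 CPM, and UPK2 had 1.97, 1.25 and 1.14 CPM. CDH1, the epithelial cadherin, had 0.765, 0.113 and 0.152 CPM, and ESRP1, an epithelial splicing factor, was also under 1 CPM.

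Of 12 basal markers 5 were expressed: the hyaluronan receptor CD44 (1123 CPM ± 8.62), LAMB3, ITGB4, EGFR and COL17A1. The defining basal keratins KRT5 and KRT14 had at most 2 counts in any library, TP63 and CDH3 were under 1 CPM, and KRT6A, KRT17 and DSG3 had no count. Of 12 mesenchymal markers 10 were expressed. FN1 and VIM, the intermediate filament of mesenchymal cells, led them, with VIM at 2457, 2141 and 2858 CPM (2028 TPM), and CDH2, the neural cadherin, had 169, 167 and 167 CPM. The transcription factors SNAI1 (40.6 TPM), SNAI2 (35.5 TPM) and ZEB1 (30.1 TPM) were present at similar levels per length, ZEB2 was at 2.51 TPM, and TWIST1 and TWIST2 were under 1 CPM.

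Markers of other cells were mostly at or near 0, but some smooth muscle and endothelial markers were not. Of 12 immune markers 1 was expressed, CD14, and the summed level of the list was 3.30 to 4.23 CPM, with CD3D, TYROBP, LYZ and NKG7 at 0. Of 6 erythroid, 4 hepatocyte and 4 neuronal markers none reached 1 CPM, with summed levels of at most 1.49 CPM. Of 7 endothelial markers 2 were expressed: CDH5, the vascular cadherin, had 28.7, 33.0 and 30.7 CPM, and ESAM was at 1.79 CPM, whereas VWF, KDR and TEK were under 1 CPM and CLDN5 was at 0. Of 8 smooth muscle markers TAGLN (112, 84.8 and 73.0 CPM), SMTN (76.6, 51.0 and 79.3 CPM) and ACTA2 (4.33 CPM) were expressed. TAGLN and SMTN lay above the median expressed gene, 36.0 CPM. MYH11, CNN1 and LMOD1 were under 1 CPM and DES was at 0. In bulk RNA a gene that is weak in every cell and a gene that is strong in a few cells cannot be told apart.

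The lists that led by level per length were those of energy and protein production. All 13 protein-coding genes of the mitochondrial genome were expressed, with a median of 6156 TPM, and all were within the highest 10% of expressed genes. Of 79 cytosolic ribosomal proteins 75 were expressed, with a median of 686 TPM, and together they took 5.01% of all counts. RPL8 (4045 TPM) and RPS21 (4004 TPM) were the highest of them by TPM, and RPL17 (7.17 TPM) was the lowest of those expressed. The elongation factors EEF2 (2735 TPM) and EEF1A1 (1494 TPM) were of the same order. For comparison, the median over all 11406 genes was 26.6 TPM.

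Of 17 glycolytic genes 16 were expressed (median 392 TPM) and took 1.88% of all counts. Among the hexokinases HK1 (176 TPM) exceeded HK2 (46.6 TPM), and of the lactate dehydrogenases LDHB had 795, 743 and 758 CPM, whereas LDHA was higher in replicate 1 (1819 CPM) than in replicates 3 and 5 (1053 and 1147 CPM). All 25 actin cytoskeleton genes were expressed (median 596 TPM), 22 of them within the highest 10%, and together they took 3.62% of all counts. The ferritin chains FTH1 (5876 TPM) and FTL (4880 TPM), which store iron, led the antioxidant list.

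The matrix list had 25 of 29 members expressed (median 185 TPM). Behind FN1 came the collagen VI chains COL6A2 (707 TPM) and COL6A1 (568 TPM), COL5A2 (513 TPM), SPARC (452 TPM) and the basement membrane collagens COL4A2 (320 TPM) and COL4A1 (283 TPM). The fibrillar collagens of types I and III lay far lower, with COL1A1 at 3.83 TPM, COL1A2 at 0.521 TPM and COL3A1 under 1 CPM. Of 16 integrins 14 were expressed. The α chain ITGA3 (761 TPM), ITGA6 (338 TPM), the common β chain ITGB1 (316 TPM) and ITGA5 (198 TPM), the α chain of the fibronectin receptor, were the highest. ITGA4 and ITGB3 were near 0.

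Of 32 receptor tyrosine kinases 19 were expressed, with a median of 19.96 TPM, below the median of all genes. By CPM their median of 38.6 was slightly above that of all expressed genes, 36.0, so this order depended on the correction for length. EPHA2 (549 TPM), AXL (326 TPM) and MET (104 TPM) were the highest, followed by PTK7 (70.4 TPM) and ERBB2 (49.3 TPM). EGFR had 86.0, 77.6 and 61.7 CPM (19.96 TPM), FGFR1 was at 6.76 TPM and FGFR4 at 1.99 TPM, and FGFR3, often mutated in low-grade bladder tumours, had 0.765, 0.189 and 0.303 CPM. ERBB3 and ERBB4, KIT and PDGFRA were also under 1 CPM. All 26 genes of the RAS and RAF pathway list were expressed (median 85.6 TPM). HRAS had 206, 150 and 193 CPM (319 TPM), above NRAS (105 TPM), and ARAF (82.0 TPM) lay above BRAF (6.33 TPM). The feedback genes PHLDA1 (802 TPM), DUSP6 (277 TPM), SPRY2 (139 TPM) and DUSP4 (120 TPM) were in the upper part of the list.

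All 12 AP-1 and immediate early genes were expressed, with a median of 446 TPM, and 9 lay within the highest 10%. EGR1 (1100 TPM), IER3 (1077 TPM), JUNB (926 TPM) and IER2 (687 TPM) led, FOSL1 (561 TPM) and FOS (546 TPM) followed, and FOS varied little, with 413, 427 and 396 CPM. ATF3, a stress-induced member, had 45.8, 108 and 71.0 CPM, a range above 2-fold with replicate 3 the highest.

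Of 25 cyclins, kinases and inhibitors of the G1 to S transition 24 were expressed (median 46.2 TPM). CCND1 (590 TPM) stood far above CCND3 (12.1 TPM), CCNE1 (7.32 TPM) and CCNE2 (7.06 TPM), and CCND2 was near 0. CDK4 (180 TPM) was above CDK2 (63.8 TPM) and CDK6 (48.1 TPM). The inhibitors CDKN2A (240 TPM), CDKN1A (229 TPM) and CDKN2B (187 TPM) were high, and RB1, the retinoblastoma protein that these kinases inactivate, had 138, 148 and 140 CPM. CDKN2B was the most uneven of these inhibitors, with 97.8, 245 and 192 CPM and replicate 1 the lowest.

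Of 28 genes known from bladder carcinoma 26 were expressed (median 41.9 TPM). PIK3CA, a catalytic subunit of phosphoinositide 3-kinase, was at 13.5 TPM. The chromatin genes lay between KDM6A (3.26 TPM) and EP300 (62.5 TPM), with ARID1A at 29.0 TPM and KMT2D at 10.7 TPM. TERT, the catalytic subunit of telomerase, had 2.15, 1.17 and 1.29 CPM, close to the lower edge of what was included. Of 25 genes that handle cisplatin and gemcitabine, the drugs used on these cells in the study, 20 were expressed. The metallothioneins MT2A (4964 TPM) and MT1E (942 TPM), which bind metals, and GSTP1 (1122 TPM), a glutathione transferase, were high. The copper transporter SLC31A1, which also takes up cisplatin, was at 51.5 TPM, the nucleoside transporter SLC29A1 at 94.0 TPM and the gemcitabine kinase DCK at 41.9 TPM. The concentrative nucleoside transporters SLC28A1 and SLC28A3 and the deaminase CDA were under 1 CPM.

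**Figure D2:**
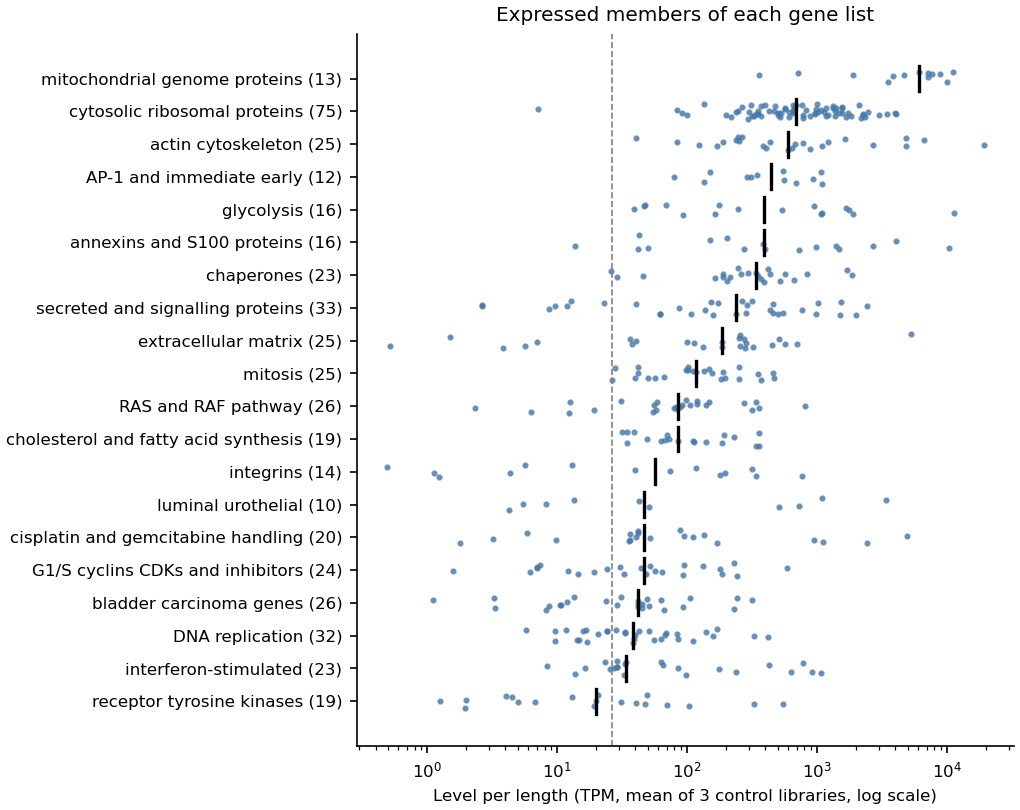
Level per length (TPM, mean of the 3 control libraries, log scale) of the expressed members of 20 gene lists, ordered by their median. Points are genes, black bars are list medians, numbers in parentheses are expressed members and the dashed line is the median of all 11406 expressed genes, 26.6 TPM. The mitochondrial genome list had the highest median, 6156 TPM, and the receptor tyrosine kinases the lowest, 19.96 TPM.

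A level of 0 could not be read as absence for each gene. RPS10, RPL36A and EEF1G, which dividing cells use, had no count in any control library, and RPL26 had 1 count. The same held for ALDOC, TAP2, IFITM1, IRF9, PRDX2, SRXN1 and MT1X, while FEN1 was at 0.349 CPM and the chaperonin HSPE1 at 0.825 CPM. The expressed share is given here by the share of exon bases that a gene has in common with other genes. It was 15.6% of the 571 genes with over 80% of their exon bases shared, 38.7% of the 476 genes with 50 to 80% shared, 60.9% between 20 and 50%, 70.9% with up to 20% and 53.5% of those with no overlap. Whether reads in shared exons were left out by the counting was not tested.

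The control libraries ranked the genes in nearly the same order. Spearman's rho over the expressed genes was 0.977 between replicates 1 and 3, 0.984 between 1 and 5 and 0.989 between 3 and 5, as a description across genes, which are not independent replicates. The chi-square per degree of freedom of the counts was 64.2, 39.6 and 27.7 for these pairs, so that each pair differed by more than counting error. The median CV was 12.6% (quartiles 7.70 and 20.2%), against 3.22% from counting alone, and 10589 genes had a CV above their counting CV. The median CV declined from 20.6% between 1 and 10 CPM to 11.9% between 10 and 100 CPM and 10.0% between 100 and 1000 CPM, and was 10.3% at 1000 CPM or more. The common biological CV estimated with edgeR was 17.2%.

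Of the 9148 genes with a mean of at least 10 CPM, 263 (2.87%) had a highest library more than 2-fold above the lowest, 1535 (16.8%) exceeded 1.5-fold and 1188 stayed under 1.1-fold. Replicate 1 was the lowest library in 131 of the 263 and the highest in 104, replicate 3 the lowest in 106 and the highest in 97, and replicate 5 the lowest in 26 and the highest in 62. Over all 9148 genes, replicates 1, 3 and 5 were the lowest in 32.0, 41.0 and 27.0% and the highest in 44.5, 31.5 and 24.0%. With CPM scaled by TMM factors, 293 genes ranged over 2-fold. On that scale 224 genes were more than 2-fold apart between replicates 1 and 3. Replicates 1 and 5 had 107 and replicates 3 and 5 had 33. By CPM on library totals, as for the 263, the number was 36 without replicate 1, 94 without replicate 3 and 200 without replicate 5. Each of these was taken over the genes at 10 CPM in the libraries kept.

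Among the 10 steadiest genes at 100 CPM or more were DDOST, a subunit of the oligosaccharyltransferase of the endoplasmic reticulum, with 349, 349 and 349 CPM, CD2AP (120, 119 and 120 CPM), PARK7 (237, 236 and 235 CPM), ENG, TMOD3, CDH2, LAMA5, SET and CD44. For CPM on library totals the CVs of the 10 ran from 0.0861 to 0.767%, below or near counting error. The TMM factors (1.04, 0.970 and 0.989) differed between libraries by more than these CVs, so this steadiness depended on the scaling. These genes were selected for a small SD among 3 values. Among 14 genes in common use as references for qPCR the median CV was 8.15%. YWHAZ (3.83%), PPIA (5.36%) and HPRT1 (5.65%) were the steadiest, GAPDH was at 17.1%, and B2M (738, 1737 and 1563 CPM) and TFRC (157, 187 and 77.1 CPM) ranged over 2-fold.

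The 10 genes with the largest CV at 10 CPM or more fell into a few patterns. IFI6 (19.5, 70.6 and 199 CPM in replicates 1, 3 and 5), IFI44L (15.1, 73.0 and 153 CPM), MX1 (34.6, 80.04 and 187 CPM) and IFI27 (83.6, 229 and 393 CPM) are induced by interferon and were lowest in replicate 1 and highest in replicate 5, by factors of 4.71 to 10.2. CXCL8, the neutrophil chemokine interleukin 8, had 233, 1167 and 470 CPM and was highest in replicate 3. UNC5B, a netrin receptor, had 3.97, 31.0 and 22.5 CPM, the chaperone DNAJB9 8.78, 38.8 and 18.6 CPM, and the decoy receptor IL13RA2 5.50, 23.9 and 30.6 CPM. INSIG1, a sterol sensor of the endoplasmic reticulum, had 102, 37.0 and 35.8 CPM, and RTN4R 18.6, 4.76 and 6.74 CPM. These 2 were highest in replicate 1, and the other 8 were lowest in it.

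**Figure D3:**
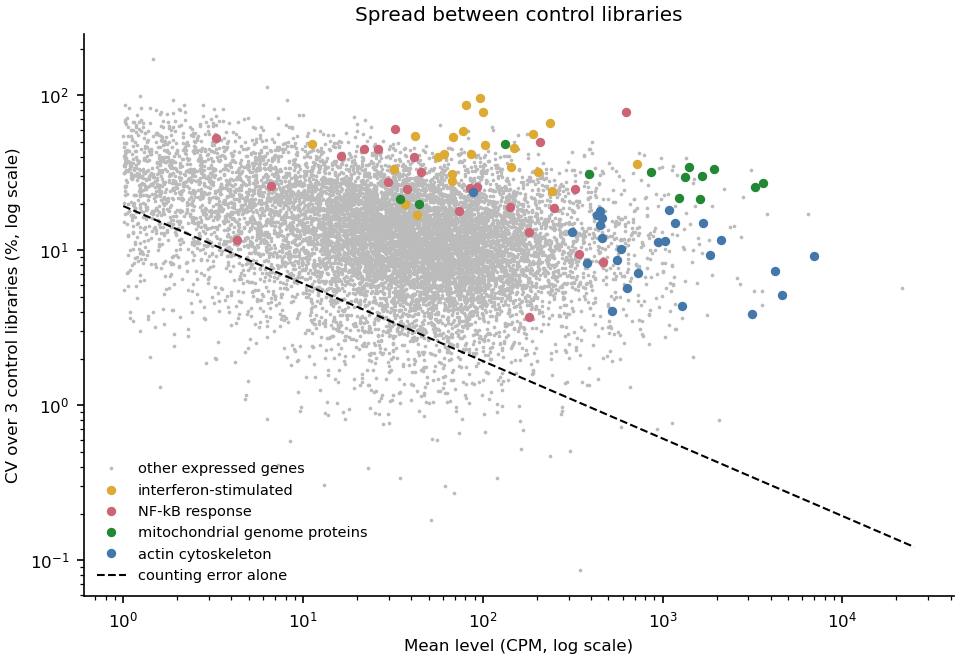
Coefficient of variation over the 3 control libraries (%, log scale) against the mean level (CPM, log scale) for the 11406 expressed genes. Grey points are single genes, coloured points are members of 4 lists, of which the NF-kB list was chosen after its values had been seen, and the dashed line is the CV from counting error at the mean depth. Interferon-stimulated genes had a median CV of 42.0% and mitochondrial genome genes 29.9%, against 11.3% for actin cytoskeleton genes and 12.6% for all genes.

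To follow such patterns over lists, the deviation of each gene in each library from its mean was taken on the log2 scale (CPM scaled by TMM, with 0.5 added). Over all expressed genes the median deviations were -0.01, 0.00 and 0.01 in replicates 1, 3 and 5. By CPM, 46.1% of all expressed genes were highest in replicate 1, 29.4% in replicate 3 and 24.5% in replicate 5. The shares that were lowest in replicates 1, 3 and 5 were 30.4, 42.5 and 27.2%. The counts of the lists below are likewise by CPM on library totals and are to be read beside these shares. Some of them differ on the TMM scale of the deviations. No test was made, since all 3 libraries belong to the same group.

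Interferon-stimulated genes, which are switched on by type I interferon through its receptor and Janus kinases, showed the widest split. All 23 expressed members were highest in replicate 5, 20 were lowest in replicate 1, against 30.4% of all expressed genes, and 14 ranged over 2-fold. The median deviation was -0.63 in replicate 1, -0.01 in replicate 3 and 0.61 in replicate 5. IFITM3, the highest member per length (1071 TPM), had 539, 610 and 1023 CPM, and ISG15 had 105, 154 and 310 CPM. The summed level of the list was 1856, 2534 and 4357 CPM. The class I antigen presentation genes were also lowest in replicate 1 (median deviation -0.32, -0.08 and 0.36), with HLA-B at 209, 260 and 422 CPM, although B2M was highest in replicate 3.

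An ISRE match was found in 13 of the 16 interferon-stimulated promoters with a window (81.3%), against 3.19% of all protein-coding windows. IFI6 and ISG15 are shown as the most uneven member and as the ubiquitin-like protein of this response, with the ISRE and CCAAT matches in capitals.
IFI6 (chr1:27672193-27672312, minus strand): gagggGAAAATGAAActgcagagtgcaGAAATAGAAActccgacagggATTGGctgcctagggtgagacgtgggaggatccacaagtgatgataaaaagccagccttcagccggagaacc
ISG15 (chr1:1013377-1013496, plus strand): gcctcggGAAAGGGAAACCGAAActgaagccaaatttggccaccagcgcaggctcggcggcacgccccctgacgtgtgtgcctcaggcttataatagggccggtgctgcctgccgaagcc

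The mitosis genes and the DNA replication genes were highest in different libraries. All 25 mitosis genes were expressed, and 24 were highest in replicate 5 (median deviation -0.21, -0.26 and 0.39). The ubiquitin-conjugating enzyme UBE2C had 85.6, 75.2 and 161 CPM, the kinases AURKA 113, 95.7 and 199 CPM and PLK1 168, 181 and 289 CPM, and the cyclin CCNB1 228, 232 and 337 CPM. KIF20A (182, 131 and 182 CPM) was the exception by CPM, but on the TMM scale all 25 were highest in replicate 5. Of 33 DNA replication genes 32 were expressed, and 29 were highest in replicate 1 (median deviation 0.30, -0.24 and -0.04). PCNA, the sliding clamp of the polymerase, had 156, 83.8 and 86.7 CPM, and the helicase subunits MCM2 to MCM7 were all highest in replicate 1, with MCM5 at 173, 86.2 and 89.6 CPM. The list of G1 to S regulators showed no such lean, with 12 of 24 expressed members highest in replicate 1, 5 in replicate 3 and 7 in replicate 5 (median deviation 0.01, -0.12 and 0.00). Within it E2F1 (44.6, 19.5 and 20.04 CPM), CCNE1 (6.81, 2.15 and 3.71 CPM) and CCNE2 (11.9, 5.93 and 4.02 CPM) were highest in replicate 1, whereas CCND1 was highest in replicate 5.

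The promoters of these lists were searched for the same letters. A CCAAT box was in 17 of 20 mitosis windows (85.0%) and in 17 of 28 replication windows (60.7%), against 36.6% of all windows. A CHR match was in 13 of 20 mitosis windows (65.0%), against 12.0% of all, and an E2F match in 11 of 28 replication windows (39.3%), against 2.44% of all. CDC20 and PLK1 are shown for mitosis, with CCAAT boxes and CHR in capitals, and MCM6 and MCM7 for replication, with E2F and CCAAT matches in capitals. GC boxes are also in capitals.
CDC20 (chr1:43358861-43358980, plus strand): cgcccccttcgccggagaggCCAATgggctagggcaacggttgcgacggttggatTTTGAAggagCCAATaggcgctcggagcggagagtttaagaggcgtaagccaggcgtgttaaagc
PLK1 (chr16:23678769-23678888, plus strand): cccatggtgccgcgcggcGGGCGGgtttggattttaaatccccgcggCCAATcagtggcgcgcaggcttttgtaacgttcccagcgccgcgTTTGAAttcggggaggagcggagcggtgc
MCM6 (chr2:135876444-135876563, minus strand): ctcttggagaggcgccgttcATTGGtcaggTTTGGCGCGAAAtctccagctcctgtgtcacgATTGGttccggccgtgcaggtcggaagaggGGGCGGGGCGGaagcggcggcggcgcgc
MCM7 (chr7:100101398-100101517, minus strand): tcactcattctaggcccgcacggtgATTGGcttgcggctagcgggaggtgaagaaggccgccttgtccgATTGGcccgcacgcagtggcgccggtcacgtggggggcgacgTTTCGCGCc

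Several metabolic lists were highest in replicate 1. Of the 19 expressed genes of cholesterol and fatty acid synthesis, the targets of SREBP transcription factors, 18 were highest there (median deviation 0.46, -0.22 and -0.23). FASN, the fatty acid synthase, had 639, 308 and 272 CPM, and SREBF1 was the exception at 266, 282 and 267 CPM. Of 16 glycolytic genes 15 were highest in replicate 1 (0.20, -0.17 and -0.05), as were 17 of 19 receptor tyrosine kinases (0.19, -0.18 and -0.05). The tubulins were lowest in replicate 3 in 9 of 9 genes, against 42.5% of all expressed genes (0.23, -0.40 and 0.11), with TUBB at 1559, 824 and 1240 CPM.

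The mitochondrial genome genes were highest in replicate 3 in 13 of 13 (median deviation -0.41, 0.46 and -0.05), with a summed level of 13213, 22856 and 16503 CPM. MT-CYB had 1400, 2652 and 1736 CPM. The polycistronic origin of these transcripts means that they are not independent of each other. Secreted and signalling proteins were lowest in replicate 1 in 23 of 33, against 30.4% of all expressed genes (-0.29, 0.24 and 0.18). The epidermal growth factor ligand EREG had 188, 513 and 461 CPM, IL1A 98.0, 306 and 218 CPM, and VEGFA 160, 273 and 207 CPM. A TATA box was in 8 of the 24 windows of this list (33.3%), against 9.39% of all. On the strand of the gene and 45 to 15 bases before the start it was in 7 (29.2%), against 3.59%. Shown are 2 chemokines, CXCL8 with a TATA box and CXCL2 with an NF-κB match in capitals.
CXCL8 (chr4:73740449-73740568, plus strand): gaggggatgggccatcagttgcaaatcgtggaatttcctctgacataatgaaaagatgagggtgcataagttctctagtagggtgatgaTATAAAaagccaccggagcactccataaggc
CXCL2 (chr4:74099196-74099315, minus strand): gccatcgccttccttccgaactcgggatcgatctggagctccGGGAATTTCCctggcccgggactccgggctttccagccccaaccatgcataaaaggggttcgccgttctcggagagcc

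Other lists stayed close to their mean in each library. The median deviation of the actin cytoskeleton genes was 0.01, -0.01 and 0.04, that of the RAS and RAF pathway -0.02, 0.06 and -0.03, that of the qPCR references 0.03, 0.02 and 0.00, and that of the chaperones 0.04, -0.02 and 0.00. The matrix genes were somewhat lower in replicate 1 (-0.13, 0.06 and 0.07), as were the cytosolic ribosomal proteins (-0.17, 0.08 and 0.05). Within the ribosomal list the spread was uneven: RPS21 (624, 1395 and 939 CPM), RPS14 (501, 1135 and 718 CPM) and RPS3A (239, 530 and 323 CPM) ranged over 2-fold, whereas RPL8 (2083, 2065 and 2051 CPM) and RPL3 (1513, 1453 and 1478 CPM) were nearly level.

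**Figure D4:**
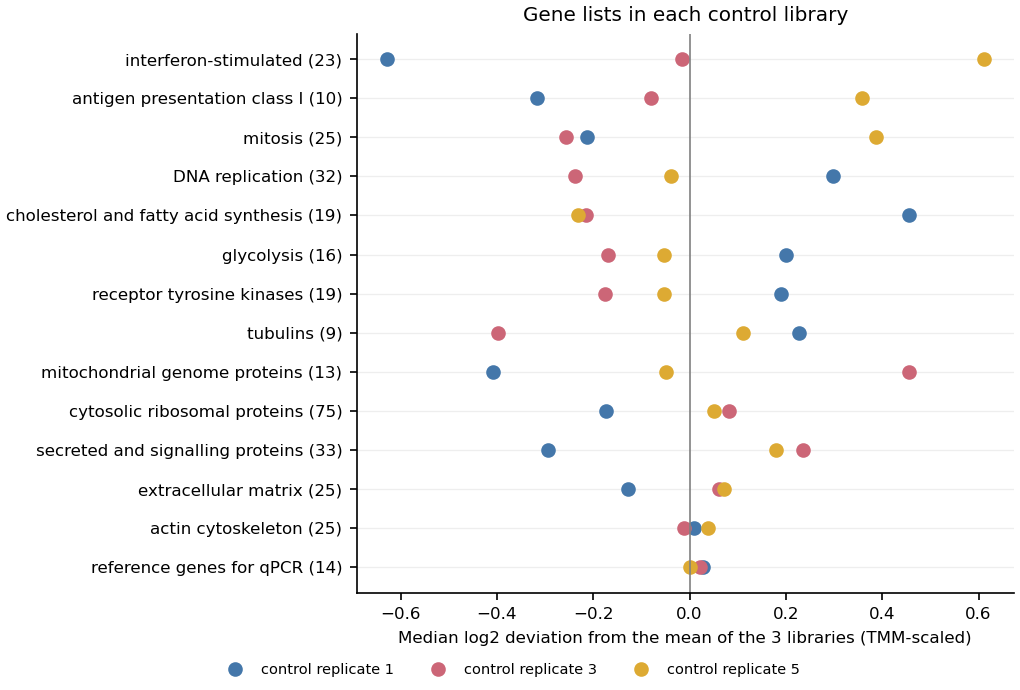
Median log2 deviation of the expressed members of 14 lists from the mean of the 3 control libraries (horizontal axis, TMM-scaled), with the number of members in parentheses. Points are the 3 libraries. Interferon-stimulated genes ran from -0.63 in replicate 1 to 0.61 in replicate 5, the mitochondrial genome genes from -0.41 in replicate 1 to 0.46 in replicate 3, and the actin cytoskeleton and qPCR reference genes lay near 0.

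The deviations also moved with base composition. In the fifth of the 9148 genes at 10 CPM or more with the lowest transcript GC content (30.7 to 40.2%), the median deviation was -0.14, 0.15 and -0.02 in replicates 1, 3 and 5. In the fifth with the highest GC content (58.2 to 74.4%) it was 0.06, -0.10 and 0.04. Spearman's rho between GC content and deviation was 0.378, -0.503 and 0.139 over these genes, which are not independent. With exon length rho was 0.118, 0.0765 and -0.293, smaller in size than with GC content in replicates 1 and 3 and larger in replicate 5. After the median deviation of genes of like GC content was taken off, the interferon list had -0.63, -0.01 and 0.61, the mitosis list -0.16, -0.28 and 0.39, the replication list 0.31, -0.25 and -0.07 and the mitochondrial genome list -0.38, 0.43 and -0.04.

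**Figure D5:**
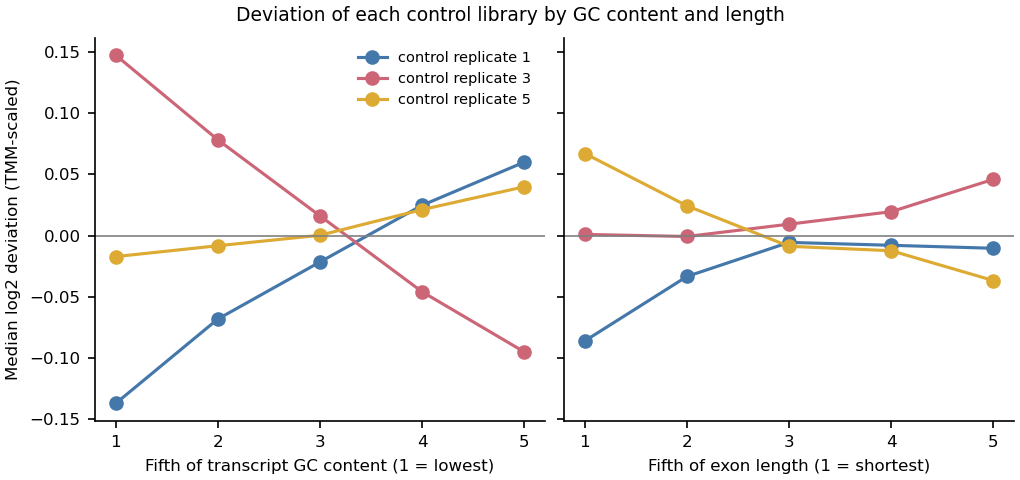
Median log2 deviation (vertical axis, TMM-scaled) of each control library in 5 groups of equal size by transcript GC content (left) and by exon length (right), over 9148 genes at 10 CPM or more. By GC content, replicate 3 ran from 0.15 in the lowest group to -0.10 in the highest. Replicate 1 ran the opposite way from -0.14 to 0.06, and replicate 5 stayed between -0.02 and 0.04. By exon length, replicate 5 ran from 0.07 in the shortest group to -0.04 in the longest, and replicate 1 from -0.09 to -0.01.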

How the data were processed

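RNA of T24 cells transfected with a non-targeting siRNA was sequenced by the authors as 3 libraries, which were assigned from the sample titles. Reads were trimmed with BBDuk, aligned to hg19/GRCh37 with STAR, marked for duplicates with Picard and counted with featureCounts by the authors, and the deposited values are raw, unnormalized counts per gene identifier. For the counting step, the annotation release, strand setting and treatment of marked duplicates were not given in the sources used here. Values of overlapping genes are therefore uncertain.

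Of 63677 identifiers, 55665 were matched to GENCODE release 44 on GRCh37. CPM used the column totals, and genes with a mean of at least 1 CPM were kept. TMM factors (1.04, 0.970 and 0.989) and the biological CV came from edgeR 4.0.16, RLE factors from DESeq2 1.42.0, and tables from Python 3.11.15. No difference was tested, because the 3 libraries form 1 group.

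The members and the 38 gene lists were chosen with earlier results of these data known, and 2 lists (NF-κB and amino acid response) and 4 motifs after the values had been seen. Of 681 list symbols, 3 were not matched. Genes named were the 10 highest by CPM and by TPM, the 10 with the largest CV at 10 CPM and the 10 with the smallest at 100 CPM, the label markers and RBM3, the extremes of each list with members under 1 CPM or ranging over 2-fold, and the 3 on each side of 1 CPM. Values of some genes that this rule names are not reported here. Further members are named as examples chosen after their values were seen. Alternatives were other scalings, thresholds and each library left out.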

Additional observations from a re-analysis of the deposited data

Results flagged for a closer look

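Outside the protein-coding genes, 1149 lncRNA genes had a mean of at least 1 CPM in the control libraries, with a summed level of 8141 CPM. They were flagged because they belong to data that the report does not use. SNHG29 (429, 740 and 598 CPM in replicates 1, 3 and 5), ZFAS1 (186, 451 and 343 CPM) and NORAD (320, 274 and 275 CPM) had the most counts, which are not corrected for length. A further 237 identifiers that matched no GENCODE gene reached 1 CPM, with a summed level of 6873 CPM. The highest of them had 1217, 1457 and 1285 CPM. The class of these identifiers was not known here. Any protein-coding genes among them are missing from the gene counts, shares and ranks above. The screen for a sample far from the others needs at least 4 samples and could not be run on 3 libraries.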

How the results depend on the processing

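The number of expressed genes (11406) was 11406 with TMM factors and 11407 with RLE factors, 11355 to 11444 when a library was left out, 11944 at a limit of 0.5 CPM, 10060 at 5 CPM and 11171 when each library had to reach 1 CPM. The share of the 100 highest genes (19.5%) ran from 19.4 to 19.8% when a library was left out, and was 18.9% without mitochondrial genome genes and 30.1% by TPM. The median CV (12.6%) was 12.3% with TMM or RLE factors, 8.72 to 12.9% when a library was left out, lowest without replicate 1, 11.4% over genes at 10 CPM or more and 17.2% with no filter on low counts. The number of genes ranging over 2-fold (263) was 293 with TMM and 287 with RLE factors, 36 to 200 when a library was left out, 689 over genes at 1 CPM or more and 1535 at a limit of 1.5-fold. Of 35 list ranks, 25 moved by more than their SD between libraries when TPM replaced CPM. List deviations of at least 0.2 on the log2 scale kept their sign in 48 of 48 recomputations, which were added after seeing the data. These used column totals or took GC content off, over a choice of lists. Column totals shift every gene of a library by nearly the same amount, under 0.2, and so could not change a sign. The GC step could hardly do so either. The median deviations of genes grouped by GC content lay between -0.14 and 0.15, also under 0.2 in size. The outcome of 48 of 48 was therefore close to fixed in advance, and no conclusion on robustness is drawn from it. List deviations under 0.2 were not counted. That of the class I antigen presentation list in replicate 3 went from -0.08 to 0.002 with GC content taken off. No paired analysis was possible because a single group was described. The depth limits levels under 0.114 CPM, and the unknown strand setting limits overlapping genes.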

Other observations

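Of lists chosen after the values had been seen, the amino acid response genes, targets of ATF4 when amino acids run short or proteins misfold, had 25 of 25 members expressed. The amino acid transporter SLC7A5 led them per length (1675 TPM), at 1559, 2284 and 1833 CPM in replicates 1, 3 and 5. The list was lowest in replicate 1 in 23 of 25 genes, against 30.4% of all expressed genes (median log2 deviation -0.49, 0.33 and 0.18), with ASNS, the asparagine synthetase, at 65.3, 211 and 174 CPM, and MTHFD2, a mitochondrial folate enzyme, at 221, 559 and 429 CPM. DDIT4 (712, 623 and 675 CPM) and CHAC1 (104, 82.5 and 83.4 CPM) were highest in replicate 1. Of 23 NF-κB response genes 21 were lowest in replicate 1, against the same 30.4% (-0.51, 0.27 and 0.21), among them PTGS2, the inducible cyclooxygenase, at 9.80, 45.5 and 42.4 CPM and RELB at 13.4, 28.2 and 36.4 CPM, whereas RELA was level at 177, 178 and 189 CPM. An NF-κB match was in 10 of 20 windows of this list, against 1.97% of all protein-coding windows.

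The replication-dependent histone genes, whose mRNAs mostly lack a poly(A) tail, had 8 of 11 members expressed in these polyadenylated libraries, with a median over those of 13.02 CPM and 41.5 TPM, against 26.6 TPM over all expressed genes. They were lowest in replicate 1 in 7 of 8, against 30.4% of all expressed genes, with H1-2 at 11.4, 29.7 and 34.5 CPM and H2AC6 at 15.9, 48.7 and 36.8 CPM. The DNA replication genes were highest in that library. Why the lists stood at different levels in the libraries was not tested.

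Expressed genes made up 44.8% of the protein-coding genes of chromosome X and 49.3% of those of chromosome 21, and 64.2% of those of chromosome 13, the highest share. The median level per length was highest on chromosome 20, at 48.6 TPM, and lowest on chromosome 18, at 15.96 TPM.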
